A study of Mus musculus with 16 samples.

Results

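The interleukin-1, IL-15, IL-27 and colony-stimulating factor genes examined here were the cytokine genes Il1a, Il1b, Il18, Il15, Il27, Csf1, Csf2 and Csf3, the IL-1 antagonist gene Il1rn and the IL-1 receptor gene Il1r1. The list was set by gene symbol. Of the 10 genes, 4 had a row among the 16707 genes of the deposited gene table, namely Csf1, Il18, Il15 and Il1r1, and the other 6 were followed in the transcript counts only. RNA came from primary mouse astrocytes, prepared from whole brains of P6 pups after removal of the meninges, enriched with beads against the astrocyte surface antigen ACSA-2 and grown in serum-free medium with HB-EGF. Cultures of 4 WT (C57BL6J) litters and 4 NLRX1-/- litters, written KO below, received vehicle (water) or 500 ng/mL lipopolysaccharide (LPS) with 10 ng/mL IFNγ for 24 h, as 2 wells from the same set of mice. This gave 16 libraries in 4 groups of 4 litters. The KO carries a germline loss of Nlrx1 in every cell, each culture pools the pups of a set of mice, and the labels do not say that a WT and a KO litter with the same number share anything else. NLRX1 is a mitochondrial member of the NOD-like receptor family, and the comparisons ask whether its loss alters the response of astrocytes to inflammatory signals.

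LPS is a component of the outer membrane of bacteria that is sensed through TLR4, and IFNγ signals through JAK kinases. IL-1α and IL-1β act on the receptor encoded by Il1r1, which signals through MYD88 and IRAK kinases, while the product of Il1rn occupies the same receptor without signalling. IL-18 and IL-1β are made as precursors that the inflammasome protease caspase-1 cleaves, IL-15 is presented to lymphocytes on its receptor α chain, and IL-27 pairs the Il27 product with EBI3. CSF1 (M-CSF), which astrocytes are known to supply to microglia, acts on the receptor CSF1R, whereas Csf2 and Csf3 encode GM-CSF and G-CSF.

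Salmon assigned between 27259420 and 43752903 read pairs to transcripts per library, called reads below. Nlrx1 checked the labels: its deposited level, in log2 CPM (the log2 of counts scaled to library depth), was 4.44, 4.13, 4.11 and 4.21 in WT vehicle litters 1 to 4 and 2.24, 2.96, 1.84 and 2.85 in KO vehicle litters 1 to 4. In LPS + IFNγ it was between 4.08 and 4.19 in WT and between 1.09 and 2.23 in KO, so that the genotypes did not overlap in either treatment. KO minus WT was -1.70 in vehicle (SE 0.24, adjusted p = 0.054) and -2.19 in LPS + IFNγ (SE 0.25, adjusted p = 0.0032) in edgeR's quasi-likelihood test. All 10 astrocyte markers had at least 10 reads in every library. Among microglial and macrophage markers, Cd68 had between 26 and 74 reads per library and P2ry12 between 2 and 56. Aif1 had 0 reads in 14 of 16 libraries, and Cx3cr1, Tmem119, Itgam, Tyrobp and Fcrls had 0 in 11 each. Ptprc, C1qa and Ctss had 0 reads in 6, 6 and 7 libraries and at most 14, 16 and 13 reads. The 5 neutrophil markers summed to at most 0.379 RPM (reads scaled to the library's assigned reads, as in CPM), in KO LPS + IFNγ litter 4. Oligodendrocyte lineage markers summed to between 1860 and 3753 RPM over the 16 libraries, led by Olig1, which glial progenitors also express, with a median of 63204 reads against 1.04 for Mog. Fibroblast and mural markers summed to between 103 and 323, mostly from Acta2, with a median of 4678 reads against 314 for Col1a1. In bulk RNA, fewer cells of a type and less RNA per cell cannot be told apart.

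A window around the RefSeq transcription start was matched for 7 of the 10 members, as 10 windows, and not for Il15, Il27 and Csf3. The 250 bases before the start are printed below for the genes with a row in the deposited table, because Csf1 and Il18 rose and Il1r1 fell after LPS + IFNγ. Sequences are from RefSeq (GRCm38.p6), 5′ to 3′ on the strand of the gene, and capitals mark letters of the NF-κB (kappa B) consensus, read on the opposite strand.
Csf1 (chr3:107760470-107760719, minus strand): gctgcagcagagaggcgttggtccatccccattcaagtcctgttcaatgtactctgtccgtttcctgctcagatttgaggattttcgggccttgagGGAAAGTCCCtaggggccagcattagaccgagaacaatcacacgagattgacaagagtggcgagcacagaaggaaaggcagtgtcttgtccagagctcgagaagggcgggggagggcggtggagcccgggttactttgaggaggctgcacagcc
Il18 (chr9:50554450-50554699, plus strand): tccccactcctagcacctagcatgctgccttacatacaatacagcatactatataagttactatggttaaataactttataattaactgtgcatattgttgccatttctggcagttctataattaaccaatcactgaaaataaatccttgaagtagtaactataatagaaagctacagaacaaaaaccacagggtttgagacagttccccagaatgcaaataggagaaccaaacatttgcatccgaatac
Il1r1, first start (chr1:40224830-40225079, plus strand): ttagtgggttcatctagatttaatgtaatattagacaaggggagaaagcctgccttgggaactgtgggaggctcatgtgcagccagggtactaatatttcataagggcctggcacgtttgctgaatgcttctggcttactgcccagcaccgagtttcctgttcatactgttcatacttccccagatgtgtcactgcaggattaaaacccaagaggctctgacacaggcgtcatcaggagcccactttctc
Il1r1, second start (chr1:40266336-40266585, plus strand): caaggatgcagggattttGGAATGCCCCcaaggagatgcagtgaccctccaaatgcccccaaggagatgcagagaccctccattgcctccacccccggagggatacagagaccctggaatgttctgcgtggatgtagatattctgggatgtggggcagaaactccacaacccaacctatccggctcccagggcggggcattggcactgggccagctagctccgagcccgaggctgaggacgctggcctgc

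The Csf1 match reads GGGACTTTCC on the opposite strand and lies 154 to 145 bases before the start, and the Il1r1 match reads GGGGCATTCC and lies 232 to 223 bases before the second start. The kappa B consensus was matched in 2 of the 10 member windows and in 3.9% of 32851 windows of all genes. The STAT-type letters TTC and GAA, 3 bases of any kind apart, and the interferon response letters GAAA and GAAA, 2 bases of any kind apart, were in 0 of the 10 windows, against 7.02% and 2.98% of all windows. The AP-1 letters TGANTCA were in 2 of the 10, those of Il1a (12 to 6 bases before the start) and of the first Il1rn start (141 to 135 bases before it), against 6.75% of all windows. Both strands were searched, no matches overlapped, and a match describes letters only.

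The 6 genes without a row in the deposited table had almost no reads. Il1a, Il1b, Il1rn, Il27, Csf2 and Csf3 together had 50 reads over the 16 libraries, out of 557451000 assigned reads, and 79 of the 96 gene and library pairs were at 0. Of the other pairs, 4 were above 3 reads, the count taken here as the upper limit that 0 reads allow, equal to between 0.0686 and 0.110 RPM depending on the library. The agonists Il1a and Il1b had 2 and 4 reads, Il27 and Csf2 (GM-CSF) had 2 each, and for these 4 genes no library was above the floor. Their expression was not detectable at this depth in either genotype, with or without LPS + IFNγ.

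**Figure D1:**
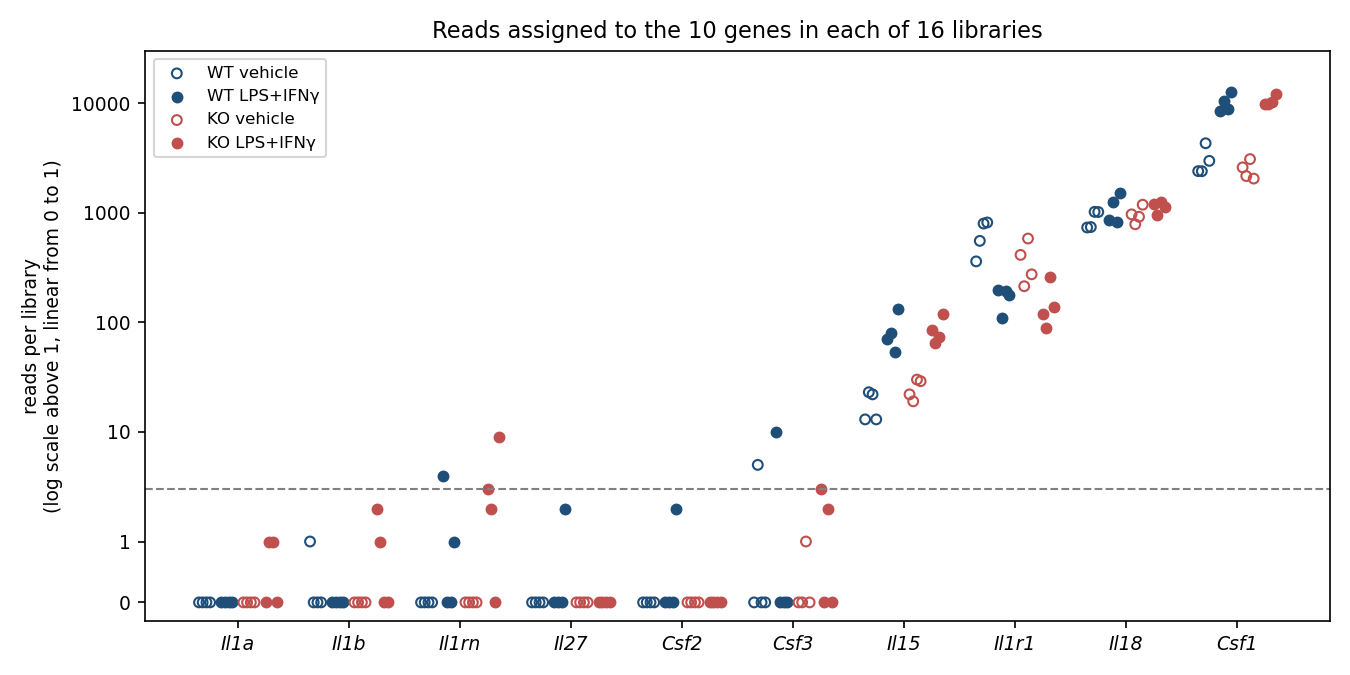
Reads per library for the 10 genes (symbols grouped by gene, open for vehicle and filled for LPS + IFNγ, blue for WT and red for KO), on an axis that is linear from 0 to 1 and logarithmic above, with the 3-read floor dashed. Il1a, Il1b, Il27 and Csf2 stay below 3 reads in all 16 libraries, Il1rn and Csf3 reach 9 and 10 reads in single libraries, and Csf1 exceeds 2046 reads in every library.

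The 19 reads of Il1rn, the receptor antagonist, all came from LPS + IFNγ libraries, 5 of them in WT and 14 in KO. WT litters 1 and 4 had 4 and 1 reads, KO litters 1, 2 and 4 had 3, 2 and 9, and all other libraries had 0. The group totals correspond to 0.0374 RPM in WT (exact 95% Poisson interval 0.0121 to 0.0873) and 0.0988 in KO (0.0540 to 0.166), intervals that overlap and cover counting error only. KO litter 4, which held 9 of the 19 reads, also held the highest sum of neutrophil markers (0.379 RPM), all of it from Mpo, while S100a8, S100a9, Ly6g and Elane had 0 reads in every library. Their part in the count was not tested. Csf3 (G-CSF) had 15 reads in LPS + IFNγ libraries and 6 in vehicle, with 10 in WT LPS + IFNγ litter 1 and 5 in WT vehicle litter 2 as its highest counts, so that single libraries held most of its reads.

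Csf1 was the most abundant of the members after LPS + IFNγ and rose in both genotypes. In WT vehicle its level was 6.31, 6.40, 6.56 and 6.33 log2 CPM in litters 1 to 4, and WT LPS + IFNγ gave 8.27, 8.31, 8.30 and 8.42. In KO vehicle the level was 6.14, 5.86, 6.38 and 5.62 log2 CPM, and in KO LPS + IFNγ it was 8.21, 8.49, 8.13 and 8.49. Every treated library was above every vehicle library, and the WT litters lay closer together than the KO litters. The litter-paired response was 1.93 ± 0.14 log2 CPM in WT (SD, n = 4 litters; 3.8-fold) and 2.33 ± 0.51 in KO (5.03-fold). With edgeR's quasi-likelihood test over 16066 genes the response was 1.91 (SE 0.15, adjusted p = 3.3e-06) in WT and 2.30 (SE 0.15, adjusted p = 8.6e-07) in KO.

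Il15 rose about 4-fold from a low level. Vehicle wells of WT litters 1 to 4 stood at -1.04, -0.25, -0.86 and -1.07 log2 CPM and those of KO litters at -0.29, -0.85, -0.31 and -0.57, from 13 to 30 reads per library. In LPS + IFNγ the WT litters had 1.26, 1.20, 0.86 and 1.78 log2 CPM and the KO litters 1.27, 1.28, 0.99 and 1.86, from 53 to 132 reads. No treated library overlapped a vehicle library, and litter 4 was the highest of the treated libraries in both genotypes. The litter-paired response was 2.08 ± 0.62 log2 CPM in WT (SD, n = 4; 4.23-fold) and 1.86 ± 0.52 in KO (3.62-fold). In edgeR it was 2.16 (SE 0.34, adjusted p = 0.00051) in WT and 1.93 (SE 0.33, adjusted p = 0.00077) in KO.

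Il18, whose product needs cleavage before it is active, rose by a smaller amount. Vehicle levels of WT litters 1 to 4 were 4.86, 4.88, 4.86 and 4.98 log2 CPM, those of KO litters 5.01, 4.65, 4.85 and 5.10. After LPS + IFNγ the WT litters had 5.20, 5.56, 5.12 and 5.62 log2 CPM and the KO litters 5.41, 5.38, 5.41 and 5.36. Within each genotype the treatments did not overlap, the WT treated litters fell into a lower pair (litters 1 and 3) and a higher pair (litters 2 and 4), and the KO treated litters lay within 5.36 to 5.41. The litter-paired response was 0.48 ± 0.21 log2 CPM in WT (SD, n = 4; 1.40-fold) and 0.49 ± 0.20 in KO (1.40-fold). In edgeR it was 0.49 (SE 0.08, adjusted p = 0.00070) in WT and 0.45 (SE 0.08, adjusted p = 0.00097) in KO.

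Il1r1, the signalling receptor for IL-1α and IL-1β, was the member that fell. In WT it went from 4.29, 4.89, 4.68 and 5.00 log2 CPM in vehicle litters 1 to 4 to 3.06, 2.74, 2.97 and 2.62 in LPS + IFNγ, without overlap. In KO it went from 3.74, 2.79, 4.60 and 2.74 log2 CPM in vehicle to 2.32, 2.21, 3.03 and 2.03, and the treated level of litter 3 lay above the vehicle levels of litters 2 and 4. Each of the 8 litters was lower after treatment than in its own vehicle well. The litter-paired response was -1.87 ± 0.51 log2 CPM in WT (SD, n = 4; 3.65-fold lower) and -1.07 ± 0.49 in KO (2.10-fold lower). In edgeR the response was -1.67 (SE 0.27, adjusted p = 0.00060) in WT and -1.09 (SE 0.27, adjusted p = 0.0067) in KO. The edgeR values of Il1r1 rest on the transcripts paired with its symbol, and limma on the deposited log2 CPM per gene, which does not use that pairing, gave -1.87 (SE 0.20, adjusted p = 1.3e-05) in WT and -1.07 (SE 0.20, adjusted p = 0.00080) in KO. Fibroblast and mural markers also went down with treatment, from between 195 and 323 to between 105 and 183 RPM in WT without overlap, and from between 120 and 318 to between 103 and 177 in KO with overlap. Ependymal markers went from between 178 and 245 to between 116 and 160 RPM in WT and from between 104 and 195 to between 64.4 and 113 in KO. Oligodendrocyte lineage markers went from between 2907 and 3753 to between 1860 and 2525 RPM in KO without overlap, and from between 2745 and 3415 to between 2036 and 2758 in WT with overlap. Astrocyte markers went from between 7445 and 11327 to between 6083 and 8942 RPM in WT and from between 5554 and 8904 to between 4997 and 6982 in KO, with overlap in both. This sum hides opposite moves. In edgeR, Gja1, S100b, Aqp4 and Atp1b2 were called lower in both genotypes and Slc1a3 and Aldh1l1 higher in both. The sums of the neuron and endothelial lists did not go down in KO. There neuron markers, mostly Map2 (median 29784 reads against 1047 for Tubb3), had a median of 955 RPM in vehicle and 1000.1 after treatment. The single neuron markers went both ways, since edgeR called Tubb3 higher and Rbfox3 lower in both genotypes. Endothelial markers in KO, mostly Flt1 (median 45.6 reads against 6 for Pecam1), went from between 1.01 and 3.97 to between 3.63 and 5.13 RPM. In WT both lists had a lower median after treatment, with overlap. WT neuron markers went from between 928 and 970 to between 782 and 942 RPM (median 954 to 805). WT endothelial markers went from between 1.09 and 2.47 to between 0.902 and 2.10 RPM (median 2.07 to 1.57). The summed level of the microglial list is not reported here. The part of these lists in the fall of Il1r1 was not tested.

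**Figure D2:**
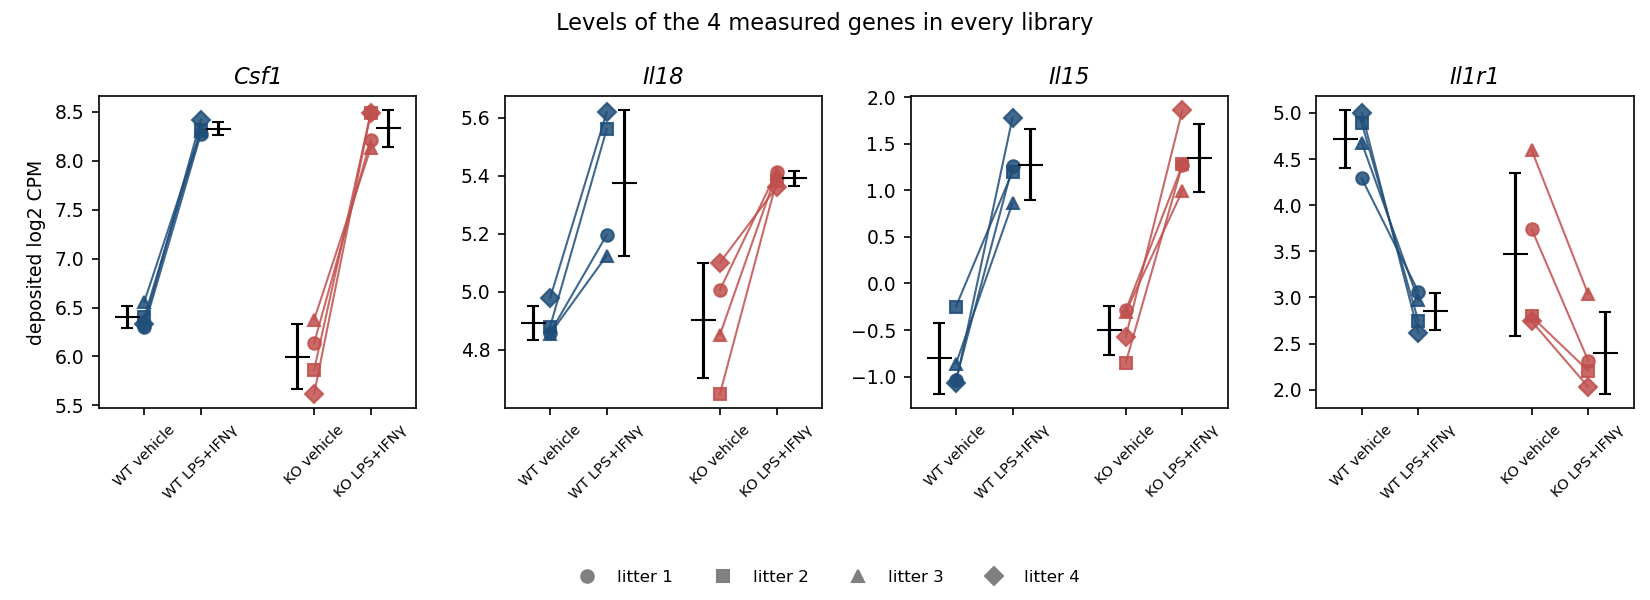
Deposited log2 CPM of Csf1, Il18, Il15 and Il1r1 in each library, 1 panel per gene, with a line joining the vehicle and LPS + IFNγ wells of a litter, blue for WT and red for KO, and black bars giving the mean ± SD of 4 litters. Lines of Csf1, Il18 and Il15 go up and those of Il1r1 go down in all 8 litters, and the KO vehicle litters of Il1r1 spread from 2.74 to 4.60.

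In each genotype 3 of the 4 measured members passed the edgeR test as higher and 1 as lower, as they did by limma on the deposited values. Over all genes tested, 23.7% were called higher and 20.2% lower in the WT response, and 25.3% and 24.2% in the KO response, or 43.9% and 49.4% in either direction. By limma 24.9% were called higher and 21.9% lower in WT (46.7% in all) and 26.6% and 25.5% in KO (52.1% in all), so a call in itself was common. Called in the same direction in both genotypes were 18.8% of genes (higher) and 15.5% (lower). The median response over all genes was -0.02 log2 in WT and -0.03 in KO, against 1.20 and 1.19 over the 4 measured members. These 4 had passed the filter on low counts, and no response can be given for the other 6.

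Per transcript length, the order of the members changed with treatment. In TPM, a level scaled to both length and depth, WT vehicle had Il18 at 58.7 ± 4.8 (SD, n = 4), Csf1 at 42.4 ± 3.6, Il1r1 at 8.0 ± 2.0 and Il15 at 0.982 ± 0.31, and no neighbours in this order overlapped. In WT LPS + IFNγ the order was Csf1 at 138 ± 7.0 TPM, Il18 at 71.7 ± 12, Il15 at 3.87 ± 1.1 and Il1r1 at 2.21 ± 0.73, where the last 2 overlapped. KO vehicle had the same order as WT vehicle, with Il18 at 58.1 ± 7.2 TPM, Csf1 at 31.5 ± 7.6, Il1r1 at 4.33 ± 2.1 and Il15 at 1.17 ± 0.24. KO LPS + IFNγ had Csf1 at 135 ± 13 TPM, Il18 at 70.5 ± 3.6, Il15 at 3.99 ± 1.0 and Il1r1 at 1.76 ± 0.79, with no overlap between neighbours. These TPM values hold paired transcripts only. Paired counts came to 71.4% of those recovered from the deposited CPM for Il1r1 and to 102% for Il15. The order and overlap of these last 2 may therefore depend on the pairing.

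At the transcript level, Csf1 and Il18 were each carried by a main form among the paired transcripts. For Csf1 the transcript of 4192 bases held 94.0% ± 1.4 of the paired reads in WT vehicle (SD, n = 4) and 95.7% ± 0.69 in WT LPS + IFNγ. It held 96.3% ± 1.5 in KO vehicle and 96.9% ± 0.86 in KO LPS + IFNγ. For Il18 the transcript of 1147 bases held 91.3% ± 2.0, 88.2% ± 3.7, 82.1% ± 4.3 and 88.1% ± 3.2 of the paired reads in the same order of groups. Between genotypes, 4 shares reached the smallest two-sided p that an exact permutation of 4 against 4 litters allows (p = 0.029), namely those of the 1147-base and 1177-base Il18 forms and the 3307-base Csf1 form in vehicle and of the 4192-base Csf1 form in LPS + IFNγ, and none of the 52 share tests passed after adjustment, the lowest adjusted p being 0.37. For Il1r1 the transcript of 4808 bases held 87.6% ± 6.9, 81.1% ± 23, 71.9% ± 25 and 62.2% ± 44 of the paired reads, again in that order, with a spread too wide to order the groups. That transcript held less than another Il1r1 form in KO vehicle litter 4 (48.7%) and in KO LPS + IFNγ litters 3 (24.1%) and 4 (24.8%). Il15 transcripts had too few vehicle reads for steady shares, as the share of its 1503-base form in KO vehicle, 67.1% ± 46, shows.

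Whether loss of Nlrx1 changed the response was tested as the difference of responses, KO minus WT. It was 0.39 (SE 0.21, adjusted p = 0.39) for Csf1, -0.24 (SE 0.47, adjusted p = 0.85) for Il15, -0.04 (SE 0.11, adjusted p = 0.92) for Il18 and 0.58 (SE 0.38, adjusted p = 0.49) for Il1r1 in edgeR. No member passed or had an unadjusted p under 0.05 in this fit, whereas Il1r1 was under it in edgeR on counts recovered from the deposited CPM and Csf1 in edgeR without the low-count filter. Over all genes, 0% were called in this comparison, with 2469 genes at an unadjusted p under 0.05. DESeq2 called 296 genes and no member, with Csf1 under an unadjusted p of 0.05, and limma on the deposited values called 0 genes, with Il1r1 under it (0.79, SE 0.28, adjusted p = 0.21). For Il18, 2 SE either side of the edgeR value ran from -0.27 to 0.19, the narrowest range of the 4 members. For Il15 it ran from -1.17 to 0.70, the widest range of the 4. Leaving out each litter in turn, the Csf1 difference ran from 0.20 to 0.60 and the Il1r1 difference from 0.31 to 1.01. Without KO litter 3, limma called the Csf1 difference.

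The KO litters spread more widely than the WT litters in the vehicle levels of Csf1 and Il1r1 and in the Csf1 response, while the Il1r1 responses spread alike (SD 0.51 in WT and 0.49 in KO, n = 4). For Csf1 the responses of WT litters 1 to 4 were 1.97, 1.91, 1.74 and 2.08 log2 CPM, and those of KO litters 2.08, 2.62, 1.75 and 2.87. For Il1r1 the WT litters gave -1.23, -2.15, -1.71 and -2.39, and the KO litters -1.43, -0.59, -1.57 and -0.71. KO litters 2 and 4 had Csf1 responses above every WT litter and Il1r1 falls smaller than in every WT litter, while KO litters 1 and 3 lay within the WT range for both. The same litters 2 and 4 had the lowest vehicle levels of both genes, whereas their treated Csf1 levels (8.49 in each) were the highest of the 16 libraries. Since the vehicle level enters the response, the levels and the responses are not independent measures.

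**Figure D3:**
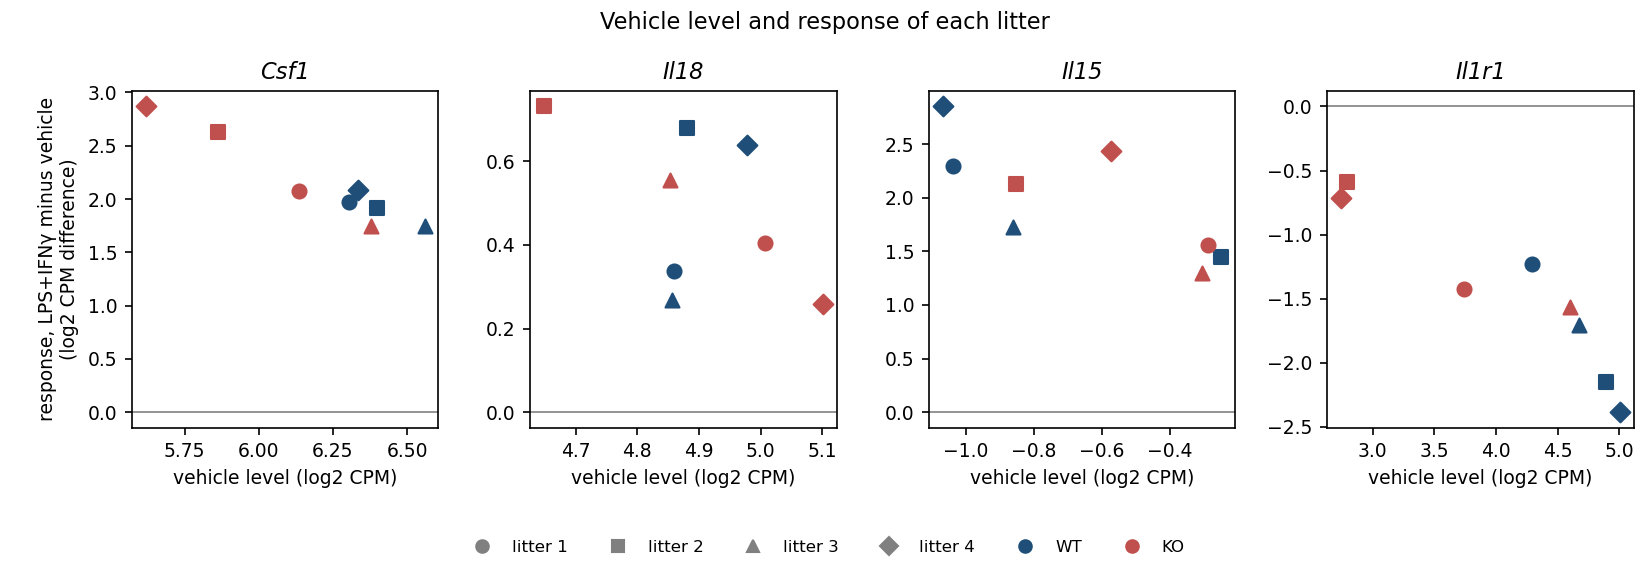
Response (LPS + IFNγ minus vehicle, log2 CPM) against the vehicle level of the same litter for Csf1, Il18, Il15 and Il1r1, with a symbol per litter, blue for WT and red for KO. KO litters 2 (square) and 4 (diamond) stand at the low end of the vehicle levels of Csf1 (5.86 and 5.62) and Il1r1 (2.79 and 2.74), with Csf1 responses of 2.62 and 2.87 and Il1r1 responses of -0.59 and -0.71.

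In vehicle, KO minus WT was -0.38 (SE 0.13, adjusted p = 0.15) for Csf1 and -0.84 (SE 0.34, adjusted p = 0.20) for Il1r1 in edgeR. It was 0.29 (SE 0.31, adjusted p = 0.63) for Il15 and 0.04 (SE 0.11, adjusted p = 0.90) for Il18. No member passed after adjustment over all genes, of which 0% were called, with 3152 at an unadjusted p under 0.05. DESeq2 called 735 genes and none of the members, and limma on the deposited values called 1 gene (0.00599% of those tested), Nlrx1 itself. In that limma fit Il1r1 was at -1.25 (SE 0.33, adjusted p = 0.099) and Csf1 at -0.40 (SE 0.13, adjusted p = 0.12). Csf1 and Il1r1 had an unadjusted p under 0.05 in every setting tried with all litters. Of the KO vehicle litters, 3 of 4 were below every WT litter in Il1r1 and in Csf1, and whether either passed depended on KO litter 3. Without that litter Csf1 was at -0.52 (edgeR, adjusted p = 0.021) and Il1r1 at -1.17 (adjusted p = 0.030), where adjusted p ran from 0.021 to 0.45 for Csf1 and from 0.030 to 0.52 for Il1r1 over the litters left out in turn.

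Some marker lists followed the order of these vehicle levels and others did not, and orders of only 4 litters can match by chance. From lowest to highest, the KO vehicle litters stood in the order 4, 2, 1 and 3 for Il1r1 and for Csf1, and in the same order for the fibroblast and mural markers, which summed to 120, 143, 163 and 318 RPM, and for the endothelial markers. Taking the litters as 4, 2, 1 and 3, the astrocyte markers summed to 6421, 5554, 7496 and 8904 RPM. The oligodendrocyte lineage markers stood in the order 3, 1, 4 and 2 and the neuron markers in the order 3, 1, 2 and 4. The ependymal markers stood in the order 2, 4, 1 and 3, that of the astrocyte markers. The microglial list, which rests mainly on a marker not reported here, stood in the order 2, 3, 1 and 4. In WT vehicle the order for Il1r1 was 1, 3, 2 and 4, the order of the astrocyte markers (7445, 8966, 9202 and 11327 RPM). The microglial list had that order too, and neither the fibroblast and mural nor the endothelial markers did. The WT order for Csf1 was 1, 4, 2 and 3, that of the ependymal markers and not of the astrocyte, endothelial or fibroblast and mural markers. Residual Nlrx1 was higher in KO vehicle litters 2 and 4 (2.96 and 2.85 log2 CPM) than in 1 and 3 (2.24 and 1.84). The part of any of these in the spread of Csf1 and Il1r1 was not tested.

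After LPS + IFNγ, KO minus WT was -0.01 (SE 0.13, adjusted p = 0.97) for Csf1, 0.05 (SE 0.28, adjusted p = 0.92) for Il15, -0.02 (SE 0.11, adjusted p = 0.93) for Il18 and -0.31 (SE 0.35, adjusted p = 0.61) for Il1r1 in edgeR. With all litters, no member passed or had an unadjusted p under 0.05, by edgeR, DESeq2 or limma. Over all genes, edgeR called 2.65% higher and 2.38% lower (5.03% in all) and limma 4.4% and 4.41% (8.8% in all). Without KO litter 3, limma called Il1r1 lower, and over the litters left out in turn its difference ran from -0.66 to -0.16. The treated levels of the genotypes overlapped for all 4 members. For Csf1 and Il18, 2 SE either side of the difference ran from -0.27 to 0.25 and from -0.25 to 0.21.

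The receptors and regulators of the IL-1 family were followed from lists of pathway genes. The counts of each list in this and the next paragraphs stand beside 23.7% of all genes called higher and 20.2% lower in WT and 25.3% and 24.2% in KO, and nothing particular to a list is read from them. Il2rg, Il12rb1 and Casp4 passed the low-count filter through treated libraries alone and Il1r2 through vehicle libraries alone, so that their calls lend no support to the counts. Myd88, Irak2, Pycard, Gsdmd, Stat5b, Il2rg, Il12rb1 and Il12rb2 were picked for large WT responses among genes that edgeR called in both genotypes. Their edgeR calls were therefore fixed by the choice and lend no support. Among IL-1 receptors and decoys, 5 of 11 genes were tested, of which 1 was higher and 2 lower in WT and 2 were higher and 1 lower in KO, with a median response of -0.39 log2 in WT and -0.38 in KO. Il1r2, the decoy receptor that binds IL-1 without signalling, had 52, 65, 75 and 60 reads in WT vehicle litters 1 to 4 and 6, 3, 9 and 7 after treatment. In KO it had 43, 14, 39 and 40 reads in vehicle and 9, 7, 14 and 13 after treatment, so both genotypes had at most 14 reads after LPS + IFNγ. In edgeR the fall was -3.46 (SE 0.50, adjusted p = 0.00026) in WT and -1.21 (SE 0.46, adjusted p = 0.0504) in KO. The KO value passed in DESeq2 (adjusted p = 0.039), in limma-voom (adjusted p = 0.032) and in limma on the deposited values (-1.07, adjusted p = 0.034). Since Il1r2 passed the low-count filter through vehicle libraries alone, none of its calls is read as support for a fall. In edgeR its difference of responses was 2.24 (SE 0.67, adjusted p = 0.22). Il1rap, the accessory chain that Il1r1 needs for signalling, was at 4.62 ± 0.17 log2 CPM in WT vehicle (SD, n = 4), 4.77 ± 0.22 in WT LPS + IFNγ, 4.67 ± 0.09 in KO vehicle and 5.41 ± 0.50 in KO LPS + IFNγ. Its response was 0.14 (SE 0.15, adjusted p = 0.47) in WT and 0.73 (SE 0.15, adjusted p = 0.0019) in KO in edgeR, with a difference of responses of 0.59 (SE 0.21, adjusted p = 0.24). Under LPS + IFNγ Il1rap was higher in KO than in WT by 0.68 (SE 0.19, adjusted p = 0.0488), a call made in 10 of 25 alternative settings, with adjusted p from 0.0087 to 0.16.

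Il18bp, which encodes the secreted inhibitor of IL-18, rose far more than Il18 itself. It went from between 1.05 and 1.48 log2 CPM in WT vehicle to between 7.02 and 7.46 in WT LPS + IFNγ, and from between 1.53 and 2.12 to between 7.40 and 8.05 in KO. The response was 6.34 (SE 0.12, adjusted p = 2.6e-11) in WT and 6.41 (SE 0.12, adjusted p = 2.1e-11) in KO in edgeR, from its paired transcripts, and 5.98 and 6.00 by limma on the deposited values. Il18bp shares exon sequence with Numa1 on the opposite strand, and the libraries do not mark strand. The same limit holds for Myd88 with Acaa1a, Il12rb2 with Serbp1 and Il27ra with Palm3.

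The signalling list of the IL-1 receptor moved in both directions. Of its 16 genes, all tested, 5 were higher and 5 lower in WT and 6 were higher and 3 lower in KO, with a median of -0.05 log2 in WT and 0.15 in KO. Myd88, the adaptor that IL-1, IL-18 and Toll-like receptors share, went from 2.55 ± 0.16 to 5.09 ± 0.27 log2 CPM in WT (SD, n = 4) and from 2.52 ± 0.11 to 5.32 ± 0.40 in KO. Irak2, a kinase-like partner of MYD88, went from 3.11 ± 0.20 to 3.88 ± 0.37 log2 CPM in WT and from 2.49 ± 0.22 to 3.85 ± 0.28 in KO. Both were picked as called in both genotypes, so that their edgeR calls are no result. In that fit Myd88 was at 2.54 (adjusted p = 4.5e-07) in WT and 2.80 (2.0e-07) in KO, and Irak2 at 0.76 (0.00085) and 1.35 (1.6e-05).

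Casp1, Casp4, Pycard and Gsdmd, which act in the processing and release of IL-1β and IL-18, rose in both genotypes. In the inflammasome and processing list 12 of 18 genes were tested, of which 7 were higher and 0 lower in WT and 9 higher and 1 lower in KO, with a median of 0.25 log2 in WT and 0.38 in KO. Casp1 went from between 28 and 41 reads in WT vehicle to between 1013 and 1722 after treatment, and from between 15 and 31 to between 1656 and 1881 in KO. Its edgeR response was 5.37 in WT and 6.44 in KO, with a difference of responses of 1.07 (SE 0.27, adjusted p = 0.22). DESeq2 called that difference for Casp1 (1.09, adjusted p = 0.030), as did edgeR (1.297, adjusted p = 0.046) and limma (1.28, adjusted p = 0.026) without KO litter 3. Casp4 is the mouse caspase-11 that binds LPS. On its paired transcripts it had 6, 4, 0 and 0 reads in WT vehicle litters 1 to 4 and between 275 and 600 after treatment. In KO it had 0, 8, 0 and 0 reads in vehicle and between 505 and 1417 after treatment. Both edgeR and limma called Casp4 higher in both genotypes, but it passed the low-count filter through treated libraries alone. None of its calls is therefore read as support for a rise, which rests on the paired reads and the deposited levels alone. The fitted Casp4 response differed between tools, from 6.15 (limma on the deposited values) over 7.33 (edgeR) to 8.35 (DESeq2) in WT. In KO it went from 6.89 over 8.90 to 10.8. The edgeR and DESeq2 values hold paired transcripts only, and the cause of the spread between tools was not tested. Without a litter it ran from 5.68 to 8.39 in WT and from 6.58 to 12.7 in KO. Pycard, the inflammasome adaptor ASC, was at 3.87 (SE 0.29, adjusted p = 2.6e-06) in WT and 3.32 (SE 0.28, adjusted p = 5.7e-06) in KO, and Gsdmd, the pore-forming target of these caspases, at 4.65 (SE 0.30, adjusted p = 8.5e-07) and 4.20 (SE 0.28, adjusted p = 1.0e-06) in edgeR. A call in both genotypes was the condition for naming Pycard and Gsdmd. Nlrp3, the sensor of the best-known inflammasome, had 0 reads on its paired transcripts in all 16 libraries. Il18, Casp1, Casp4, Pycard and Gsdmd had reads in every treated library while Il1b and Nlrp3 were not detectable at this depth.

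For IL-15, 6 of 7 partner genes were tested, of which 5 were higher in WT and 6 in KO and none lower, with a median of 0.78 log2 in WT and 0.86 in KO. Il15ra, the chain that presents IL-15, went from 2.08 ± 0.26 to 4.21 ± 0.19 log2 CPM in WT (SD, n = 4) and from 2.26 ± 0.18 to 4.20 ± 0.11 in KO, a response of 2.15 (SE 0.17, adjusted p = 3.3e-06) in WT and 1.98 (SE 0.16, adjusted p = 4.8e-06) in KO in edgeR. The ligand Il15 itself was at 2.16 and 1.93 in the same fit. Stat5b, a transcription factor downstream of the receptor and picked as called in both genotypes, rose by 1.03 (SE 0.06, adjusted p = 2.5e-07) in WT and 0.92 (SE 0.06, adjusted p = 5.2e-07) in KO by edgeR. Il2rg, the signalling chain shared by several interleukin receptors, was near the floor, with at most 1 read in any vehicle library, between 10 and 18 in WT LPS + IFNγ and between 3 and 15 in KO LPS + IFNγ, which is at least 14.1-fold higher in KO when the 4 vehicle libraries are set at 3 reads in all.

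Around Il27, 4 of 8 genes of the IL-27 and IL-12 family were tested, of which 1 was higher and 1 lower in WT and 2 were higher and 1 lower in KO, with a median of -0.07 log2 in WT and 0.27 in KO. Ebi3, which encodes the partner chain of IL-27, had 14 reads in the WT vehicle group and 18 in the WT LPS + IFNγ group, and 14 and 8 in the KO groups. Il27ra, the IL-27 receptor, had between 11.8 and 46.0 reads and edgeR responses of -0.12 (SE 0.45) in WT and 0.13 (SE 0.43) in KO, neither called. Il12rb1, a receptor chain for IL-12 and IL-23, had 0, 0, 5 and 2 reads in WT vehicle litters 1 to 4 and between 1049 and 2162 after treatment, and 0 reads in every KO vehicle library against between 1445 and 1985 after treatment, at least 2414-fold higher over the group. Its partner Il12rb2, picked as called in both genotypes, fell by 0.86 in edgeR (SE 0.29, adjusted p = 0.036) in WT and by 1.18 (adjusted p = 0.0070) in KO. The WT call of Il12rb2 was lost in 6 of 16 fits that left out a litter, with values from -1.13 to -0.65.

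Receptors for the colony-stimulating factors were near the floor or were not called higher. Csf1r had at most 12 reads in any library, Csf2rb at most 5 and Csf3r at most 3, and none of these was tested. Csf2ra, the α chain of the GM-CSF receptor, was at 4.25 ± 0.27 log2 CPM in WT vehicle and 3.77 ± 0.21 in WT LPS + IFNγ (SD, n = 4), with a response of -0.45 (SE 0.17, adjusted p = 0.052) in WT and -0.35 (adjusted p = 0.11) in KO in edgeR, while DESeq2 (adjusted p = 0.030), limma-voom (adjusted p = 0.040) and limma on the deposited values (-0.48, adjusted p = 0.024) called the WT fall of Csf2ra. Without WT litter 3 that fall was -0.25 in edgeR (adjusted p = 0.26) and -0.295 by limma (adjusted p = 0.16). Il34, which encodes the other ligand of CSF1R, went from 1.08 ± 0.42 to 4.04 ± 0.33 log2 CPM in WT and from 2.00 ± 0.44 to 5.12 ± 0.59 in KO. By limma on the deposited values the Il34 response was 2.97 (SE 0.20, adjusted p = 2.4e-07) in WT and 3.12 (SE 0.20, adjusted p = 1.4e-07) in KO. By edgeR on paired transcripts the Il34 response was 4.31 and 5.00. Paired counts of Il34 came to between 6.61% and 92.9% of those recovered from the deposited CPM, depending on the library. The edgeR values may therefore depend on the pairing. Without a litter, over both tools, the Il34 response ran from 2.87 to 4.56 in WT and from 2.87 to 5.61 in KO. Under LPS + IFNγ, KO minus WT of Il34 was 1.23 (SE 0.49, adjusted p = 0.12) in edgeR and 1.08 (SE 0.29, adjusted p = 0.040) by limma on the deposited values, a call made in 5 of 25 alternative settings, with adjusted p from 0.0096 to 0.28. Exons of Il34 overlap Vac14 on the opposite strand, from which its reads cannot be told apart. Both ligands of CSF1R were thus called higher in both genotypes, while the receptor had few or no reads. In the list of CSF receptors and partners, 3 of 8 genes were tested, of which Il34 was the 1 called in each genotype, with a median of 0.05 log2 in WT and -0.03 in KO.

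**Figure D4:**
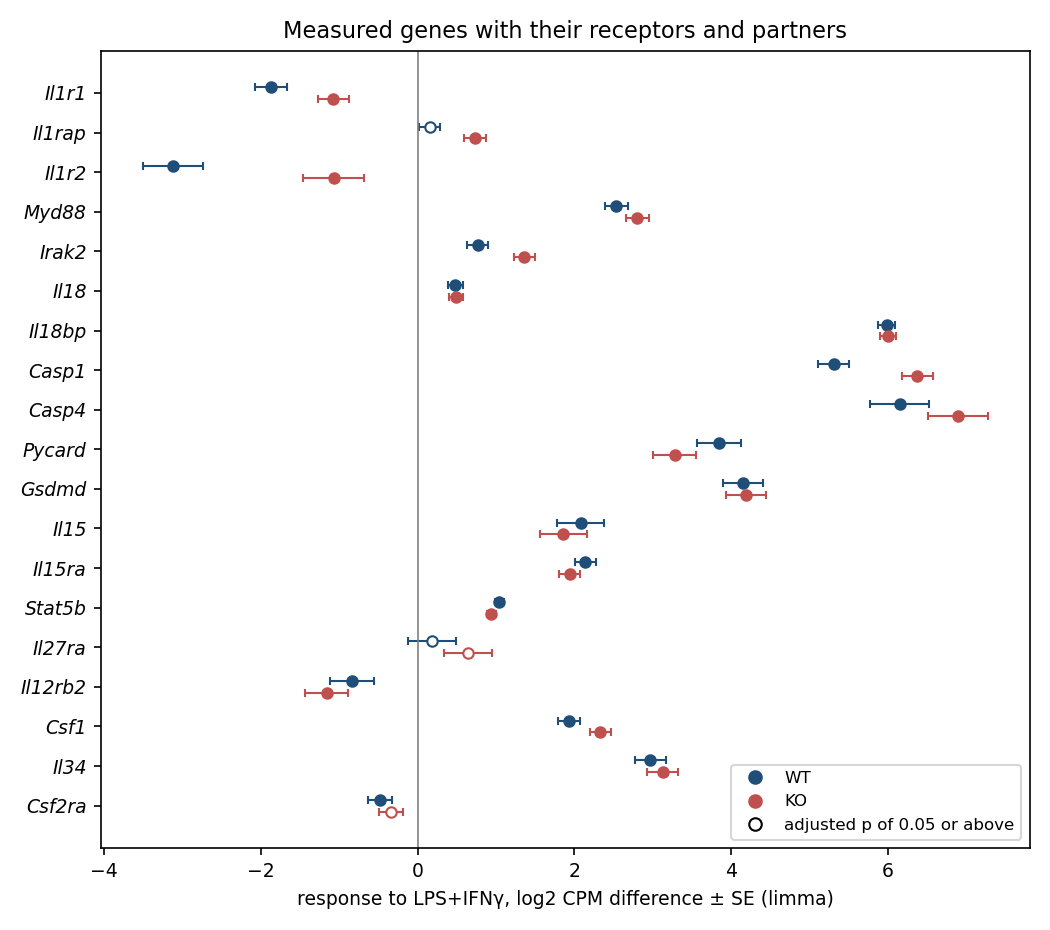
Response to LPS + IFNγ (log2 CPM difference ± SE, limma on the deposited values) of the 4 measured members and their receptors and partners other than Il12rb1 and Il2rg, blue for WT and red for KO, with open symbols where the adjusted p was 0.05 or above. Il18bp and Casp4 lie near 6 or above, Il1r1 and Il1r2 are below 0 in both genotypes, and Csf1 and Il34 are above 1.9 in both.

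To see which genes varied like the members among litters, each gene's deposited log2 CPM was centred on its group mean and correlated with the member over the 16 libraries, which share litters in pairs. Il1r1 was closest to Kank2 (Pearson r = 0.96), Dysf (0.96) and Erc1 (0.95), and Csf1 to Kif3b (0.94), Slc39a4 (0.91) and Ccdc162 (0.91). Il18 was closest to Sts (0.91), Pnrc2 (0.89) and Cfp (0.88), and Il15 to P2ry14 (0.87), Zfp513 (0.83) and Osbpl2 (0.83). Among the members the highest values were those of Csf1 with Il15 (0.49) and with Il1r1 (0.48), and Il18 with Il1r1 was at -0.08. These values describe the 16 libraries and were taken as the highest over all genes of the table.

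In the annotation (GENCODE M39, GRCm39) Il1a (chr2:129140291-129152098) and Il1b (chr2:129206490-129213059) are both on the minus strand and Il1rn (chr2:24226865-24241506) lies on the same chromosome. Il1r1 is at chr1:40264174-40356417, on the chromosome that also holds Il1r2 (chr1:40113239-40164391), Il18 at chr9:50466081-50493633, Il15 at chr8:83054226-83129874, Il27 at chr7:126188181-126194209, Csf1 at chr3:107648364-107667806, Csf2 at chr11:54138097-54140493 and Csf3 at chr11:98592089-98594458. Exons of Csf1 overlap the long noncoding gene Gm40121 and exons of Il15 overlap 9530004M14Rik, both on the opposite strand, from which reads without strand cannot be told apart. No exon of Il1r1 or Il18 overlaps another gene.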

How the data were processed

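The authors captured poly-A RNA of 16 astrocyte cultures, made libraries that do not mark strand, and quantified transcripts with Salmon 1.7.0 (submitters' processing notes) on the GRCm39 transcriptome. They deposited expected counts, TPM and effective lengths (other values) for 129698 transcripts. They also deposited CPM per gene, length-scaled by tximport, filtered, divided by TMM-adjusted library sizes and therefore a score rather than plain CPM, and the log2 of these values with a prior count.

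Transcript values were added up by gene through RefSeq accessions (between 96.7% and 97.3% of reads paired), rounded, scaled by TMM with offsets for transcript length, filtered by filterByExpr (10 counts) and tested in R 4.3.3 by the quasi-likelihood test of edgeR 4.0.16. Benjamini-Hochberg adjustment ran over the 16066 genes kept, with a threshold of 0.05. Responses used the study's formula with litters as blocks within genotype, since both wells of a litter came from the same mice. After centring by group, the 2 libraries of a litter correlated across genes at 0.073 to 0.35, against a median of -0.052 between litters (genes are not independent replicates). Genotypes were compared over the 4 groups without litter terms. The fits were tested on simulated data. Alternatives used DESeq2 1.42.0, limma 3.58.1 (limma-voom, and limma on the deposited log2 CPM), other scalings, filters, blocks and leaving out each litter, and 2 were added after the data were seen, edgeR on counts recovered from the deposited CPM and limma without each litter. Levels and figures used Python 3.11.15, pandas 2.3.3, scipy 1.17.1 and matplotlib 3.10.9. P-values of the responses and of the transcript shares measure the spread between litters. Those of the genotype comparisons treat the 2 wells of a litter as separate libraries and pool the spread over both treatments. Depth sets the precision of low genes, and intervals and floors cover counting error only.

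The members and gene lists were chosen with earlier results of these data known. Named genes are the members, Nlrx1, direct receptors, ligands and processing enzymes, and from each list up to 2 further genes with the largest WT response among those called in both genotypes. Protein sequences were not used here. Some marker genes are not reported here.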

Additional observations from a re-analysis of the deposited data

How the results depend on the processing

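The response calls of the 4 members (3 higher, 1 lower in each genotype) were the same under every alternative and without each litter. Without the litter block ("no replicate block") the members' calls stayed at 3 higher and 1 lower in both genotypes, while calls over all genes went from 7053 to 5378 in WT and from 7943 to 6426 in KO. A replicate block in the genotype comparisons left 0 members called. The paper describes WT and KO pups with the same day of birth, and the labels do not tie the litter numbers to it. After centring by group, WT and KO libraries of 1 number and treatment correlated above 0.1 for 1 of 4 numbers in vehicle (-0.034 to 0.18) and in LPS + IFNγ (-0.089 to 0.15). Calls over all genes varied more between tools: for KO against WT in LPS + IFNγ 808 by edgeR, 0 on the 8 libraries of that treatment, 387 by limma-voom, 552 without the low-count filter, 1471 by limma on deposited values, 2206 with the block and 2438 by DESeq2. DESeq2 called 735 genes in vehicle and 296 for the difference of responses, where edgeR called 0.

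Several small genotype differences changed sign. The Il18 difference of responses was 0.0063 by limma on deposited values and 0.0033 by edgeR on recovered counts, and in LPS + IFNγ Il18 was 0.015 by limma. Csf1 in LPS + IFNγ was 0.0027 by limma and 0.010 on recovered counts, and Il15 there was -0.024 without length offsets. The WT response of Il27ra was 0.18 by limma, 0.12 without length offsets and 0.19 on recovered counts. The cause was not tested. The litter-paired response moved for Il15 with log2(CPM + 1), to 1.15 in WT and 1.09 in KO, and for Csf1 in WT on log2(TPM + 0.1), to 1.697. On that scale the Il18 response was 0.28 in WT and 0.29 in KO, against 0.48 and 0.49 in log2 CPM.

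Leaving out each litter in turn, the LPS + IFNγ difference ran from -0.066 to 0.070 for Csf1, from -0.15 to 0.28 for Il15 and from -0.096 to 0.097 for Il18. For Il1r1 it ran from -0.66 to -0.16. The difference of responses ran from 0.20 to 0.60 for Csf1, from 0.31 to 1.01 for Il1r1, from -0.48 to 0.034 for Il15 and from -0.12 to 0.083 for Il18, and the vehicle difference from -0.057 to 0.11 for Il18. The Il27ra response ran from -0.52 to 0.43 in WT and from -0.20 to 0.89 in KO. Members called lower ran from 0 to 2 in vehicle and from 0 to 1 in LPS + IFNγ, and members called with a higher response in KO from 0 to 1. All of these calls came without KO litter 3: Csf1 and Il1r1 in vehicle, and by limma Csf1 in the difference of responses (0.60, adjusted p = 0.046) and Il1r1 in LPS + IFNγ (-0.66, adjusted p = 0.049).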
